A study of Mus musculus with 24 samples.

Results

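The unloading response of skeletal muscle that lacks Nfkb1 was measured on 8 of the 24 arrays of the series: 4 from Nfkb1-/- mice after 6 days of hind limb unloading (HU) and 4 from weight bearing (WB) Nfkb1-/- mice. The arrays were chosen by their genotype and intervention labels, and every response below is HU minus WB on the log2 scale. All mice were male and 6 weeks old, were given 3 days of acclimation, and each contributed gastrocnemius and plantaris muscles to 1 array. The Nfkb1-/- animals were of the strain B6;129P2-Nfkb1tm1Bal/J, which carries the deletion in every tissue and not in muscle alone, whereas the wild type animals, used here for the spread and as a reference response (4 WB and 4 HU), were B6129PF2/J. Genotype and strain therefore cannot be told apart. The Bcl3-/- arrays of the series lay on another intensity scale and were not compared. The deletion itself could not be checked in the arrays, because no probe set was listed for Nfkb1.

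Nfkb1 encodes p105, which is processed to p50, a DNA-binding subunit of NF-κB. p50 has no transactivation domain of its own: it acts as a heterodimer with RelA or c-Rel, or as a homodimer that can be joined by Bcl-3. Unloading removes weight from the limb, and the antigravity muscles then lose protein through the ubiquitin-proteasome and lysosomal pathways while synthesis falls.

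Of 9722 probe sets with an intensity above 20 on at least 4 of 16 arrays, 962 (9.9%) were higher and 1381 (14.2%) lower in unloaded Nfkb1-/- muscle at a limma adjusted p below 0.05. With 1 probe set per gene, 611 of 5972 genes (10.2%) were called higher and 860 (14.4%) lower, and the median over all genes was -0.02. In wild type muscle the same fit called 502 probe sets (5.16%) higher and 366 (3.76%) lower, or by gene 282 (4.72%) higher and 243 (4.07%) lower. The 4 WB arrays correlated at 0.991 to 0.994 across probe sets, and the 4 HU arrays at 0.976 to 0.990. HU arrays 2 and 3 resembled each other most (0.990), as did HU arrays 1 and 4 (0.987). The number called higher fell to 551 without HU array 2, to 631 without HU array 3, and to 608, 635 and 570 without WB arrays 1, 2 and 4. The number of arrays, 4 per group, limits the precision, with a median standard error of 0.11 on the log2 scale. In such whole-muscle RNA, fewer cells of a type and less RNA per cell cannot be told apart.

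Among the called genes without overlap that had an array above 20 in both groups, the largest rises were in Chac1 and Fbxo32. Chac1, which degrades glutathione and is a target of the stress factor ATF4, had intensities of 50.5, 42.6, 143 and 93.9 in the WB arrays and 366, 840.5, 576 and 325 in the HU arrays, a log2 change of 2.74 ± 0.37 SE (limma adjusted p = 0.000334). All 4 HU arrays lay above all 4 WB arrays, HU array 2 being the highest. Fbxo32, the muscle ubiquitin ligase atrogin-1, read 108, 73.2, 273 and 114 in WB and 341, 1083, 921 and 501 in HU, and its change was 2.36 ± 0.45 SE (limma adjusted p = 0.00202). WB array 3 was well above the other WB arrays but still below the lowest HU array. Another Fbxo32 probe set rose by 1.85. In wild type muscle the changes of these genes were 0.69 for Chac1 and 1.06 for Fbxo32, neither of which passed the test, and the difference between the genotypes' responses did not pass either (limma adjusted p = 0.0766 and 0.277).

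**Figure D1:**
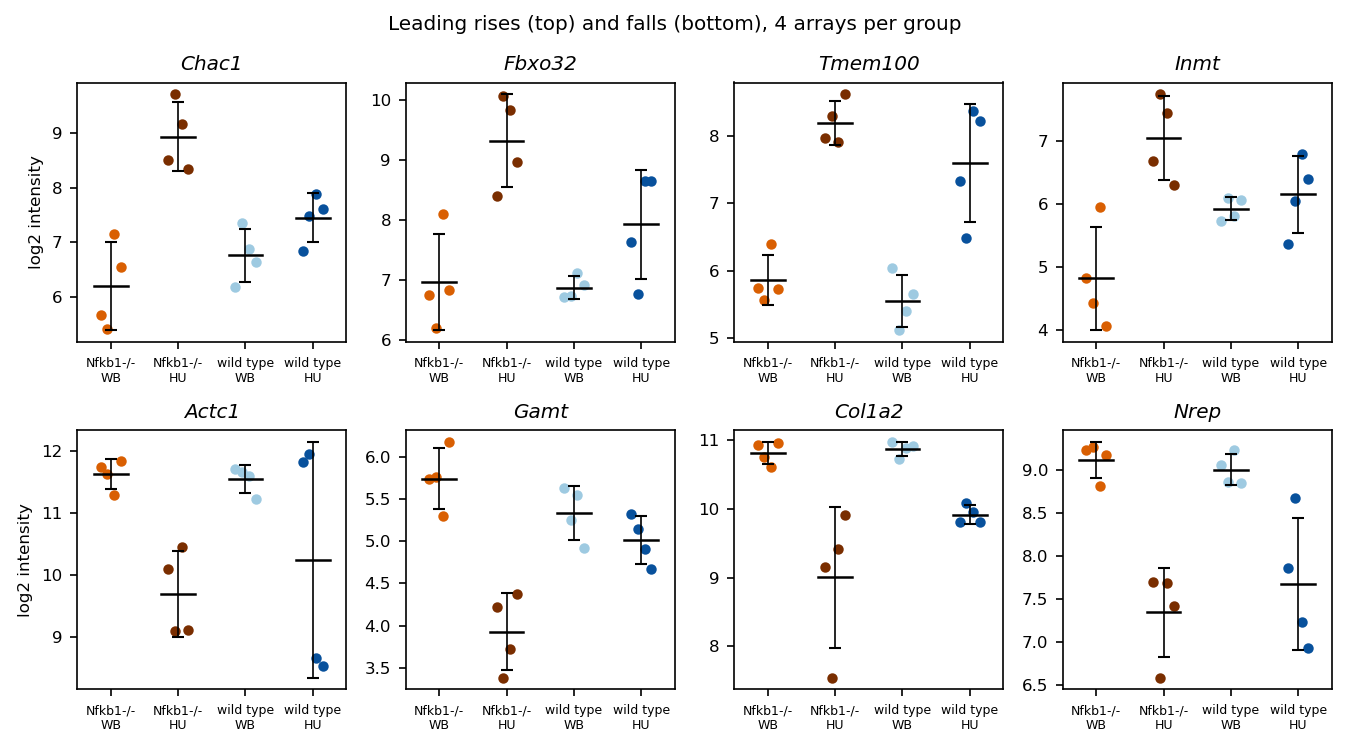
Log2 intensity (y axis) of the 4 genes with the largest rise (top row) and the 4 with the largest fall (bottom row) among genes called in Nfkb1-/- muscle whose WB and HU arrays do not overlap and of which each Nfkb1-/- group has an array above 20. Points are arrays, horizontal bars are group means and error bars are SD (n = 4); in the Nfkb1-/- groups (left pair in each panel) all HU points of a panel lie on one side of all WB points, whereas the wild type groups (right pair) overlap in Chac1, Fbxo32, Inmt, Actc1 and Gamt.

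Other leading rises had varied functions. Tmem100, a membrane protein of endothelium, read 53.7, 47.2, 84.4 and 52.8 in WB and 249, 313, 240.4 and 393 in HU (2.34 ± 0.33 SE, wild type 2.05, also called). Inmt, an amine methyltransferase, read 28.4, 21.5, 62.5 and 16.9 in WB and 103, 215, 175 and 79.6 in HU (2.22 ± 0.38 SE), against 0.23 in wild type. Cyp2e1, a cytochrome P450, rose by 1.61 in Nfkb1-/- muscle and changed by -0.12 in wild type. The difference between these responses had limma adjusted p-values of 0.0872 for Inmt and 0.0554 for Cyp2e1. Pfkfb3, which makes the activator of phosphofructokinase, rose by 1.81, and Fbp2, the muscle fructose bisphosphatase, by 1.34. Klf10, a TGF-β-inducible repressor, rose by 1.67 and was also called in wild type (1.30).

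Ankrd1 and Sln, both low in weight bearing muscle, also rose. Ankrd1, a titin-binding ankyrin repeat protein, read 10.1, 10.6, 11.7 and 12.1 in WB and 16.8, 52.6, 48.9 and 101 in HU (limma adjusted p = 0.00541). Its WB arrays all lay at or below 20, the intensity filter, so that the rise has only a lower limit, set against 20: at least 2.28-fold higher. The same limit is used below wherever all arrays of a group were at or below 20. Sln, the sarcolipin that inhibits the calcium pump SERCA, read 19.0, 15.1, 14.3 and 21.1 in WB and 75.8, 67.9, 44.0 and 108 in HU (2.03 ± 0.56 SE). HU array 4 was the highest for both genes, and HU array 1 was the lowest HU array for Ankrd1. In wild type they were at least 5.29-fold and at least 8.97-fold higher, both called, and the difference between responses did not pass the test for either. Mustn1, a small nuclear protein of muscle, rose by 1.15, and the acetylcholine receptor subunit Chrnb1 by 0.90 (wild type 1.75 and 1.18, both called).

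Among the ligases and conjugating enzymes listed for atrophy, 6 of the 23 tested (26.1%, beside 10.2% of all genes) rose and none fell, with a median change of 0.24 (wild type 0.14) beside -0.02 over all genes. Besides Fbxo32 these were Fbxo9 (0.87), Ube2j1 (0.49), Fbxo31 (0.42), Zfand5 (0.41) and Ubr2 (0.36). The count of 6 was 3 without HU array 2 and also 3 without WB array 2. Of the 27 lysosome and autophagy genes tested, 8 (29.6%, beside 10.2% of all genes) rose and none fell (median 0.17). They included the autophagosome proteins Map1lc3a (0.79) and Gabarapl1 (0.55), the autophagy kinase Ulk1 (0.69), the protease Ctsl (0.57) and the mitophagy receptor Bnip3 (0.38). This count was 3 without HU array 2 or WB array 1, 4 without HU array 3, and 5 without WB array 2 or WB array 4. Of 36 proteasome genes tested, none was called higher by limma (4 at an unadjusted p below 0.05). The 3 called lower (8.33%, beside 14.4% of all genes) were the subunit Psma1 (-0.44) and the assembly chaperones Psmg1 (-0.40) and Psmg2 (-0.46). The median of the 36 was -0.04, against 0.12 in wild type.

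The study singled out 25 atrophy genes on these samples. It listed all of them as raised in wild type, and all but Fbxo9 as not raised in Nfkb1-/- muscle. The genes are therefore not independent evidence of a direction, nor of a difference between the genotypes. At the study's probe sets 23 were tested, of which 7 (30.4%, beside 9.9% of all probe sets) were called higher in Nfkb1-/- muscle. None was called lower, and the median was 0.24. The called genes were Fbxo32, Ankrd1, Fbxo9 (at least 1.36-fold higher), Eif4ebp1 (0.76), Ctsl (0.57), Foxo3 (at least 1.29-fold higher, but not called at its brighter probe set, where the log2 change was 0.32) and Ube2j1 (0.49). Foxo3 passed the filter only through the Nfkb1-/- HU arrays, since all other arrays lay at or below 20. Its call is therefore not independent of the filter. Ankrd1 and Fbxo9 passed through HU arrays of both genotypes. These calls come from another test and filter than the study's. Its qPCR found no rise, or a smaller one, in Nfkb1-/- muscle for the genes it measured, except Fbxo9 and Foxo3. In wild type 9 were called higher (beside 5.16% of all probe sets), with a median of 0.50, and 3 genes were called in both genotypes. The way the genes were chosen favours a larger wild type response, so no conclusion about genotype is drawn from these values. The count of 7 was 4 without HU array 2, HU array 3, WB array 1, WB array 2 or WB array 4, and 6 to 8 without any 1 of the other 3. The difference between responses passed the test for none of the 23 (limma; 8 at an unadjusted p below 0.05), and its values for the proteasome members ran from -0.66 for Psmc4 to -0.07 for Psmd4. Tnfrsf12a, the Tweak receptor, changed by 0.61 in Nfkb1-/- muscle (limma adjusted p = 0.148) and by 1.36 in wild type. Runx1 and Psma6 lay below the intensity filter, with WB means of 4.36 and 5.54 and HU means of 5.97 and 5.33.

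Genes of the mitochondrial ribosome and of oxidative phosphorylation fell together, and other mitochondrial lists fell less evenly. Of 47 mitochondrial ribosomal proteins, which translate the mitochondrial genome, 28 (59.6%, beside 14.4% of all genes) were called lower and none higher, and all 47 had negative changes, with a median of -0.30. In wild type muscle 1 was called lower and 3 higher, with a median of 0.01. Mrpl19 read 51.4, 53.3, 48.9 and 50.4 in WB and 33.2, 28.2, 28.5 and 32.1 in HU (-0.75 ± 0.09 SE, limma adjusted p = 0.00023). Mrpl39 read 324, 314, 308 and 333 in WB and 226, 226, 232 and 213 in HU (-0.51 ± 0.07 SE). The groups were well separated in both, and the 4 arrays of a group lay close to each other. The difference from the wild type response passed the test for 1 of the 47, Mrpl55, which fell by 0.44 in Nfkb1-/- and rose by 0.47 in wild type. Over the list, the mean in the 4 HU arrays was -0.31, -0.22, -0.24 and -0.36 relative to the WB mean, and the 4 WB arrays lay between -0.07 and 0.03. Leaving out any 1 of the 8 arrays gave 23 to 27 members called lower.

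Of 50 genes of oxidative phosphorylation, 32 (64%, beside 14.4% of all genes) were called lower and none higher (median -0.24). In wild type 15 were lower and the median was -0.20. Cox7a1, the muscle isoform of a cytochrome c oxidase subunit, read 972, 976, 1062 and 1026 in WB and 603, 610.4, 759 and 562 in HU (-0.68 ± 0.12 SE). Ndufb10 (-0.53) and Ndufs8 (-0.52) of complex I followed. In the citrate cycle list 8 of 23 (34.8%) fell, led by Dlat (-0.48) of pyruvate dehydrogenase and Mdh1 (-0.41), and none rose. For fatty acid uptake and oxidation, 12 of 26 (46.2%) fell and 2 (7.69%, beside 10.2% of all genes) rose. Fabp3, the muscle fatty acid binding protein, read 950.1, 1046, 1131 and 1086 in WB and 280.1, 669, 597 and 473 in HU (-1.13 ± 0.20 SE), HU array 1 being far the lowest. The 2 that rose were the lipases Lipe (0.56) and Pnpla2 (0.43), which release fatty acids from stored fat. Fatty acid oxidation counts were 7 without HU array 4, WB array 2 or WB array 3. The mean of this list was -0.30, 0.04, -0.01 and -0.28 in HU arrays 1 to 4, and the WB arrays lay between -0.06 and 0.08. HU arrays 2 and 3 thus lay among the WB arrays. Of 17 genes of mitochondrial biogenesis and dynamics, 4 (23.5%) were called lower and 1 (5.88%) higher, with 5 changes positive and a median of -0.11. The regulators Ppargc1b (-0.57) and Esrra (-0.31) were among those lower. For this list too, HU arrays 2 and 3 (0.0006 and 0.04) lay among the WB arrays (-0.05 to 0.07). HU arrays 1 and 4 were at -0.17 and -0.33.

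**Figure D2:**
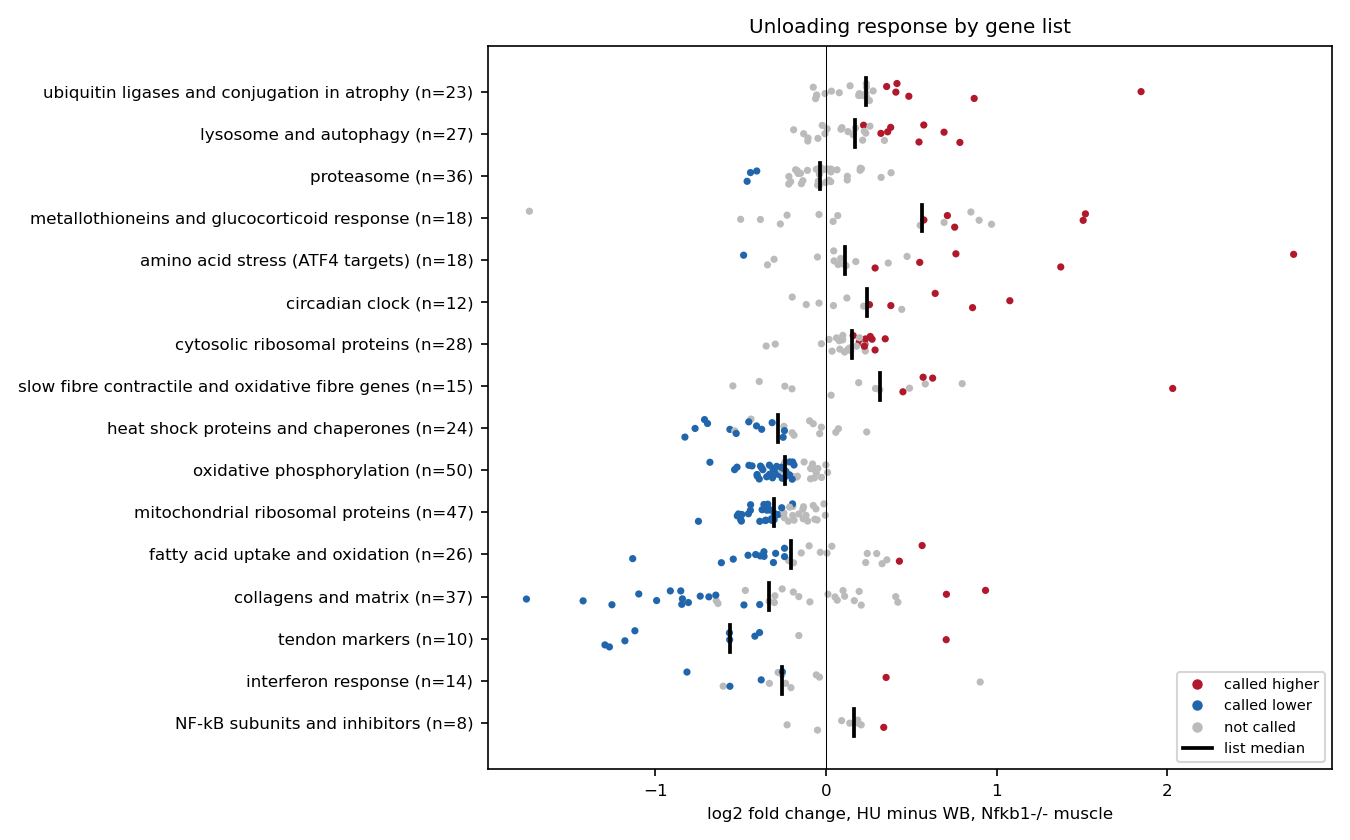
Log2 fold change, HU minus WB, in Nfkb1-/- muscle (x axis) for each tested member of 16 gene lists (rows; 1 probe set per gene, n beside the list name). Red points were called higher, blue lower and grey not called (limma adjusted p at 0.05), and black bars are list medians; all mitochondrial ribosomal points are left of 0, and collagens spread from -1.75 to 0.94.

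Chaperones fell too: 12 of 24 (50%, beside 14.4% of all genes) were called lower and none higher (median -0.28, wild type -0.08, where 2 were lower). Dnajb1, a co-chaperone of Hsp70, fell most (-0.83), with the inducible Hsp70 gene Hspa1a (at least 1.3-fold lower) and the constitutive Hspa8 (-0.56) also lower. Hspa1a read 26.2, 30.9, 22.5 and 25.4 in WB and 11.5, 16.3, 18.6 and 15.9 in HU, without overlap. Its near-identical copy Hspa1b, whose probe set may share signal with it, changed by -0.71. In wild type these changes were 0.24 and 0.46, and the difference did not pass the test (limma adjusted p = 0.0818 and 0.114). The count of 12 lay between 6 and 10 without any 1 of the 8 arrays. It was 6 without HU array 2 or WB array 2, and 7 without HU array 1, HU array 3 or WB array 1.

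Matrix genes fell as well. Of 37 collagens and matrix genes, 15 (40.5%, beside 14.4% of all genes) were called lower and 2 (5.41%, beside 10.2%) higher. The median was -0.33 (wild type -0.17, where 4 were lower and 1 was higher). Col1a1, the α1 chain of type I collagen, read 1033, 956, 830.0 and 1129 in WB and 357, 109, 384 and 477 in HU (-1.75 ± 0.31 SE, limma adjusted p = 0.00157). HU array 2 was the lowest and no HU array overlapped WB. Col1a2, its partner chain, read 1951, 1731, 1556 and 1977 in WB and 567, 187, 684 and 962 in HU (-1.81 ± 0.32 SE). Col6a2 (-1.42), Col3a1 (-1.10) and Serpinh1, the collagen chaperone (-1.34), also fell. The 2 matrix genes that rose were the matricellular Ccn1 (0.94) and Thbs1 (0.71). The list mean was -0.47, -0.83, -0.31 and 0.12 in HU arrays 1 to 4, and the WB arrays ranged between -0.13 and 0.12. HU array 4 was thus within rounding of the highest WB array.

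Tendon markers fell with this group, and fibroblast markers did so in part. Of 10 tendon markers tested, 8 (80%, beside 14.4% of all genes) were called lower and 1 higher, with a median of -0.56 (wild type -0.50). Tnmd, tenomodulin, read 336, 319.8, 299.5 and 356 in WB and 161, 91.3, 147 and 158 in HU (-1.27 ± 0.16 SE), and Kera, keratocan, fell by 1.29. Prg4, lubricin, rose by 0.71. The count of 8 was 5 without HU array 2, WB array 2 or WB array 4. The summed intensity of the 10 tendon markers was 2259 to 2451 over WB arrays and 1313 to 1867 over HU arrays. Of 11 fibroblast markers, 4 (36.4%, beside 14.4% of all genes) were called lower (Thy1 -1.14, Lum -0.74, Clec3b -0.56, Dpt -0.43) and none higher. Changes were negative in 8 and positive in 3. Their mean was -0.33, -0.67, -0.28 and 0.01 in HU arrays 1 to 4, and the WB arrays lay between -0.09 and 0.11. The summed intensity of the 11 was 4057 to 4683 in WB and 4280.2 to 4851 in HU. All 11 fibroblast markers listed on the array passed the filter, as did 10 of 11 tendon markers. The part of cell composition in the matrix changes was not tested. The tissue label was checked against 12 skeletal muscle markers: all passed the filter, 1 (Des, desmin, 0.45) was called higher and none lower, and their summed intensity was 62217 to 62995 in WB and 58834 to 60957 in HU.

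Other single falls were large. Actc1, the cardiac α-actin of immature muscle, read 3451, 3185, 2512 and 3677 in WB and 1101, 547, 1409.7 and 556 in HU (-1.94 ± 0.63 SE, limma adjusted p = 0.0346). Gamt, the last enzyme of creatine synthesis, read 53.3, 54.4, 39.3 and 72.7 in WB and 18.6, 10.4, 13.2 and 20.8 in HU (-1.82 ± 0.23 SE), against -0.33 in wild type, with a limma adjusted p of 0.051 for the difference. Neither gene overlapped between WB and HU. Nrep (-1.78), Ecrg4 (at least 2.42-fold lower), the carbonyl reductase Cbr2 (-1.66), the p38 kinase kinase Map2k6 (-1.34) and the coregulator Cited4 (at least 1.27-fold lower) fell too. Aurka, a mitotic kinase, read 58.2, 65.8, 69.4 and 64.3 in WB and 36.3, 18.9, 20.2 and 25.3 in HU, a linear ratio of means of 0.391.

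Of 22 tested genes of the IGF, Akt and FoxO pathway, 5 (22.7%) were called higher and 3 (13.6%, beside 14.4% of all genes) lower (median 0.28, wild type 0.02). Changes were positive in 15 and negative in 7, the lowest being -1.74, which was not called. The growth factor Igf1 read 332, 332, 211 and 285 in WB and 166, 109.9, 96.6 and 195 in HU (-1.07 ± 0.23 SE). Its binding protein Igfbp5 (-1.15) and the docking protein Irs1 (-0.82) fell. Pik3r1, the regulatory subunit of PI3-kinase, read 23.2, 28.2, 27.5 and 22.2 in WB and 58.2, 65.3, 88.4 and 64.9 in HU (1.44 ± 0.15 SE, limma adjusted p = 5.65e-05), the wild type change being 0.44. The difference had a limma adjusted p of 0.051. Eif4ebp1, which blocks the initiation factor eIF4E when mTOR activity is low, rose by 0.76, Sesn1 by 0.83, and Igfbp3 was at least 1.59-fold higher. Of 28 cytosolic ribosomal proteins, 9 (32.1%, beside 10.2% of all genes) rose and none fell (median 0.15, wild type 0.23), with Rpl4 (0.35) the largest. The count was 4 without WB array 2, and 5 without HU array 2, HU array 3 or WB array 4.

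Glucocorticoid-responsive genes, clock genes and immediate early genes varied widely among the HU arrays. In the list of metallothioneins and glucocorticoid response, 5 of 18 (27.8%, beside 10.2% of all genes) were called higher and none lower (median 0.56, wild type -0.02). Changes were positive in 12 and negative in 6, and ran from -1.74, not called, to 1.52. By array, the list mean was -0.06, 0.45, 0.89 and 0.06 in HU arrays 1 to 4. It was 0.19, 0.18, 0.28 and -0.65 in WB arrays 1 to 4. HU arrays 1 and 4 thus lay below WB arrays 1 to 3 and above WB array 4. Fkbp5, an immunophilin induced by glucocorticoids, read 118, 144, 185 and 54.2 in WB and 296, 328, 358 and 323 in HU (1.51 ± 0.42 SE), and the cell cycle inhibitor Cdkn1a read 79.2, 114, 99.4 and 36.6 in WB and 195, 158, 303 and 239 in HU (1.52 ± 0.42 SE). WB array 4 was the lowest in both, and the count of 5 fell to 2 without it. Klf9 (0.75), Glul (0.71) and Zbtb16 (0.57) completed the called genes. The metallothioneins Mt1 (0.85) and Mt2 (0.97) did not pass the test.

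Of 12 clock genes tested 5 (41.7%, beside 10.2% of all genes) were called higher, with Bhlhe40 (1.08) and Nr1d1 (0.86) leading. The list mean was 0.02, 0.60, 0.62 and -0.01 in HU arrays 1 to 4. HU arrays 2 and 3 thus stood above every WB array, and HU arrays 1 and 4 lay among them. The count was 3 without HU array 2 and 2 without WB array 2. Immediate early genes had list means of -0.16, 0.57, 0.86 and -0.50, spread over both sides of the WB values. Of 14 tested, 1 (7.14%, beside 10.2% of all genes) was called higher: Ier3, a stress-inducible survival gene. It read 27.8, 26.6, 31.7 and 30.1 in WB and 52.8, 117, 81.4 and 51.9 in HU (1.30 ± 0.20 SE, limma adjusted p = 0.000692), and changed by -0.03 in wild type. The difference had a limma adjusted p of 0.0512.

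**Figure D3:**
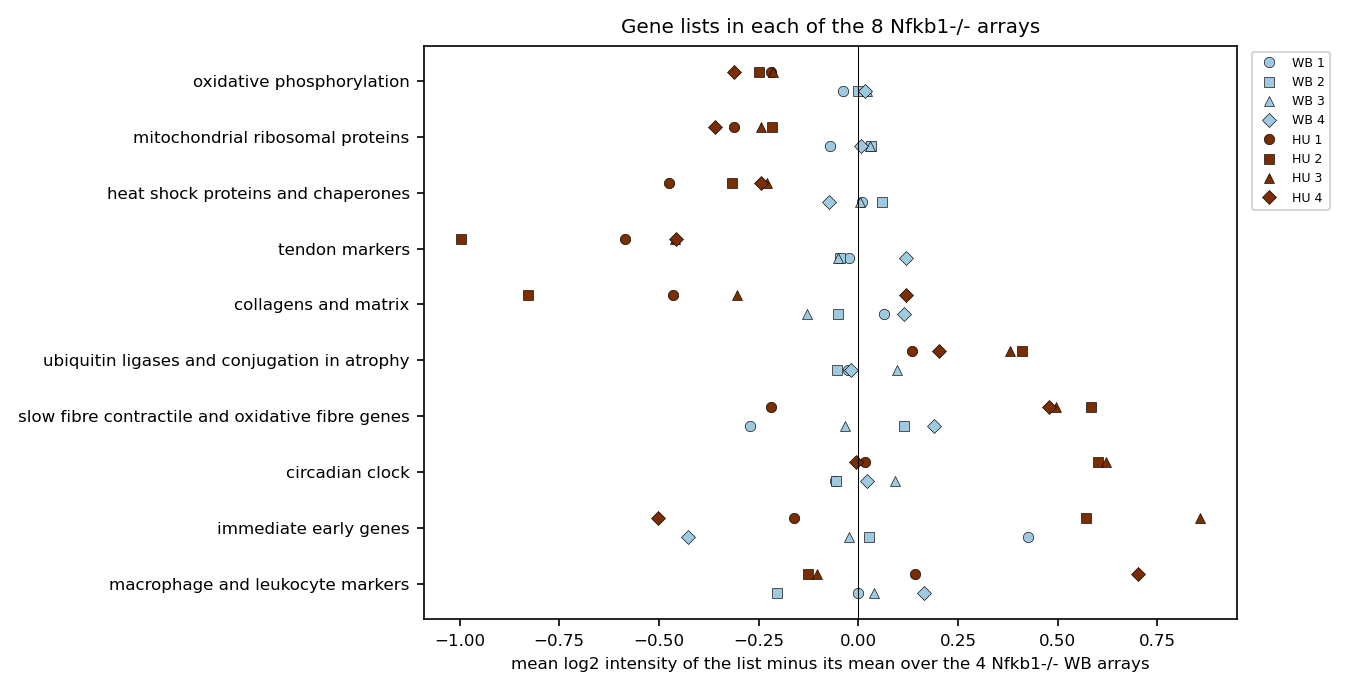
Mean log2 intensity of 10 gene lists in each Nfkb1-/- array, minus the mean over the 4 WB arrays (x axis); blue symbols are WB arrays, brown symbols HU arrays, and the symbol shape gives the array number. For oxidative phosphorylation, mitochondrial ribosomal proteins, chaperones and tendon markers all HU arrays lie left of all WB arrays, whereas for clock genes only HU arrays 2 and 3 (0.60 and 0.62) lie right of the WB arrays.

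Slow fibre genes rose in a minority: 4 of 15 (26.7%, beside 10.2% of all genes) were called higher and none lower (median 0.32, wild type 0.37). Apart from Sln these were the slow troponin Tnnc1 (0.63), the slow calcium pump Atp2a2 (0.57) and the slow tropomyosin Tpm3 (0.45). The slow myosin Myh7 changed by 0.58 without passing the test. HU array 1 had a list mean of -0.22 while the other HU arrays lay between 0.48 and 0.58, and 8 genes were called without it. The count was 2 without HU array 2, HU array 3, WB array 1 or WB array 3. Among amino acid stress genes, Chac1 and Ppp1r15a (1.38), the phosphatase subunit that restores translation, led the 5 of 18 (27.8%) called higher. The count fell to 2 without WB array 4 and to 3 without HU array 2, HU array 3, WB array 1 or WB array 2. Antioxidant genes split, with 5 of 23 (21.7%) higher and 5 (21.7%, beside 14.4% of all genes) lower. Gpx3 rose by 1.23 and Gstm2 by 1.02, whereas Gsta4 (-0.98) and Prdx2 (-0.42) fell.

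Of the NF-κB subunits, inhibitors and kinases, 8 were tested and 1 (12.5%, beside 10.2% of all genes) was called higher. This was Ikbkb, the activating kinase IKKβ, which read 42.4, 40.3, 43.8 and 42.7 in WB and 48.1, 52.5, 58.6 and 55.4 in HU (0.34 ± 0.10 SE, limma adjusted p = 0.0242). Rela, the transactivating partner of p50, changed by 0.19 (limma adjusted p = 0.0511). Nfkbia, which encodes the inhibitor IκBα, changed by -0.23 (limma adjusted p = 0.514). Rel, Relb, Nfkb2 and Bcl3 lay below the filter. Of 10 NF-κB target and TNF family genes tested, 1 (10%) rose, Irf1 (0.35). The 2 that fell (20%, beside 14.4% of all genes) were Ccnd1 (at least 1.45-fold lower), the G1 cyclin, and Sod2 (-0.36). Interferon response genes gave 4 lower (28.6%) and 1 higher (7.14%) of 14. Among the lower ones was Bst2, an antiviral membrane protein (at least 1.17-fold lower), which lay at or below 20 on all 8 wild type arrays. Its Nfkb1-/- HU arrays also lay at or below 20, so that it passed the filter only through the Nfkb1-/- WB arrays. Its call is therefore not independent of the filter.

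Leukocyte markers gave a single call, higher, among 15 tested (6.67%, beside 10.2% of all genes). It was Lgals3, galectin-3, which read 18.7, 15.2, 20.8 and 20.6 in WB and 39.0, 62.2, 64.3 and 87.9 in HU, a linear ratio of means of 3.37 (limma adjusted p = 0.00627). The list median was 0.02 against 0.33 in wild type. Their summed intensity was 926 to 1297 in WB and 1024 to 1874 in HU, with HU array 4 the highest by list mean (0.70). The neutrophil granule genes S100a9 and S100a8 rose from low levels: S100a9 read 9.5, 4.58, 5.67 and 11.7 in WB and 58.6, 21.1, 22.3 and 47.4 in HU (at least 1.69-fold higher, limma adjusted p = 0.000532). S100a8 was at least 1.54-fold higher. Both passed the filter through HU arrays, since all WB arrays lay at or below 20. Of the 11 neutrophil markers listed on the array, 8 stayed at or below 20 on all 8 arrays, and so did 10 of 11 lymphocyte markers. The part of infiltrating cells in these changes was not tested. Of 5 adipocyte markers tested, 2 (40%, beside 10.2% of all genes) were called higher, Adipoq (0.75) and Retn (0.78), and none lower. Changes were positive in 4 and negative in 1. Of the 10 adipocyte markers listed on the array, 4 stayed at or below 20 on all 8 arrays.

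Promoter sequences of 4 called genes from these groups are shown because each holds a motif searched for here. Each is the 250 bases before the RefSeq start in GRCm38.p6, 5′ to 3′ on the strand of the gene, with the motif in capitals. Chac1 (chr2:119350992-119351241, plus strand) holds a C/EBP-ATF core, TGATGNAAN on the reverse strand, from −194 to −186 relative to the start. Ier3 (chr17:35821463-35821712, plus strand) holds a κB site from −92 to −83, and Pik3r1 (chr13:101768218-101768467, minus strand) holds a κB site from −208 to −199. Mrpl39 (chr16:84735245-84735494, minus strand) holds an NRF1 site from −125 to −116. The NRF1 motif was added after the data were seen.
Chac1: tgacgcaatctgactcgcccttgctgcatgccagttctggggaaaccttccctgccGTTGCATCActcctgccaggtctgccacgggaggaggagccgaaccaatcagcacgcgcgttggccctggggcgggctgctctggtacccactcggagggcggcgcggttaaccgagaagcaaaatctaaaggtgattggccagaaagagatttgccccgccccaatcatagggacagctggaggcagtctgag
Ier3: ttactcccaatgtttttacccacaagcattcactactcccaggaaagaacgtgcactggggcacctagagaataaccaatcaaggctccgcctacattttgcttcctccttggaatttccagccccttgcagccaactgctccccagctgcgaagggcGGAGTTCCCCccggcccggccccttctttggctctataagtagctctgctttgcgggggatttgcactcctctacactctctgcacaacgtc
Pik3r1: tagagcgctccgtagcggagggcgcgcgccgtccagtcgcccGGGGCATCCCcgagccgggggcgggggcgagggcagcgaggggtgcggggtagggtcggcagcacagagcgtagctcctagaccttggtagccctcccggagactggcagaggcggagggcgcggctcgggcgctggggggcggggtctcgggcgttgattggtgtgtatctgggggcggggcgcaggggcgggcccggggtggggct
Mrpl39: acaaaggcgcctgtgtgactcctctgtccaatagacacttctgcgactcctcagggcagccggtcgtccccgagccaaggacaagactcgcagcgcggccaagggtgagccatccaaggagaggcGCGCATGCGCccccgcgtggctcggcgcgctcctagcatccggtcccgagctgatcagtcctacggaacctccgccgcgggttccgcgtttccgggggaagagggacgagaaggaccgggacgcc

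In windows from 250 bases before to 50 after the start, on both strands, the κB site was found in 11.9% of the 4896 tested genes with a promoter in the table, in 14.3% of those called higher and in 12.2% of those called lower. The C/EBP-ATF core was found in 2.68%, 2.93% and 2.15%, and in 5 of 15 amino acid stress genes (33.3%). Of these 5, Chac1 was called higher, Nupr1 was called lower, and Atf3, Gars and Vldlr were not called. The NRF1 site was in 13.6% of tested genes, in 13.1% of those called higher and 11.4% of those called lower, in 9 of 38 oxidative phosphorylation genes (23.7%) and in 6 of 40 mitochondrial ribosomal genes (15%). Over all 27025 promoters of the table the shares were 9.55%, 4.5% and 5.19% for the κB site, the C/EBP-ATF core and the NRF1 site. These counts describe letters and do not show binding.

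The Nfkb1-/- and wild type responses share no array and can be set side by side. Across 9722 probe sets their log2 fold changes had r = 0.52, as a description. Of the 962 probe sets called higher in Nfkb1-/- muscle, 172 (17.9%) were called higher in wild type, which is 34.3% of the 502 wild type calls. Of the 1381 called lower, 238 (17.2%) were also lower in wild type, which is 65.0% of its 366. There were 6 probe sets called in opposite directions. The wild type change had the same sign for 86.3% of the rises and 80.0% of the falls, with median wild type changes of 0.19 and -0.16 against 0.43 and -0.43 in Nfkb1-/- muscle.

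The difference between the genotypes' responses, tested directly, passed for 9 probe sets that were higher in Nfkb1-/- (0.0926%) and 18 lower (0.185%), or by gene 5 (0.0837%) and 12 (0.201%). At an unadjusted p below 0.05 there were 1804 such probe sets. Of the 27 that passed, the wild type response was called in 12, the Nfkb1-/- response in 18, and both in 3. Tial1, an RNA-binding regulator of splicing, had the smallest p: it read 24.6, 25.1, 25.3 and 25.7 in Nfkb1-/- WB and 34.5, 36.1, 34.4 and 29.6 in HU, and 26.7, 28.3, 24.7 and 19.98 in wild type WB and 12.5, 11.6, 11.0 and 11.0 in HU. The difference had a limma adjusted p of 5.59e-05, with a log2 change of 0.41 in Nfkb1-/- and a wild type HU level at least 1.24-fold lower. The 3 other Tial1 probe sets tested changed by 0.41 to 0.47 in Nfkb1-/- and by 0.09 to 0.55 in wild type. Cited2, a transcriptional coregulator, read 38.8, 37.8, 50.7 and 50.8 in Nfkb1-/- WB and 94.6, 116, 117 and 99.5 in HU, and 62.9, 83.2, 75.4 and 50.5 and 81.4, 76.8, 64.2 and 60.7 in wild type. Its Nfkb1-/- arrays did not overlap while the wild type ones did, and the difference was 1.19 (limma adjusted p = 0.0284).

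Klk1b16, a kallikrein-family protease gene, read 25.1, 42.3, 38.9 and 36.7 in Nfkb1-/- WB and 13.8, 5.83, 8.36 and 9.7 in HU, but 14.1, 2.91, 12.2 and 16.0 in wild type WB and 17.7, 33.8, 21.4 and 24.2 in HU (limma adjusted p = 0.0284 for the difference). Unloading left it at least 1.75-fold lower in Nfkb1-/- muscle, and all wild type WB arrays lay at or below 20. It belongs to a family of near-identical copies, so that its probe set may share signal with them. Gdpd3, a glycerophosphodiester phosphodiesterase, was near background in all 8 Nfkb1-/- arrays (highest 6.74) and read 5.75, 6.19, 5.45 and 92.4 in wild type WB and 262, 204, 386 and 478 in HU. Wild type WB array 4 thus stood far above the other 3. Nfia, a nuclear factor, and Pgap2 were low in Nfkb1-/- muscle before unloading: in the WB groups Nfia was at least 1.6-fold lower than in wild type, and Pgap2 differed by -1.13 (limma adjusted p = 0.000831 and 1.53e-05). Strain and deletion cannot be told apart in these levels. Itgb6, an integrin subunit, was at least 1.75-fold lower in Nfkb1-/- HU and had a log2 change of -0.30 in wild type, and Slc7a6, an amino acid transporter, rose by 0.59 against -0.06. That Slc7a6 difference was lost in 14 of 26 alternative settings. Another Slc7a6 probe set, at or below 20 in both WB groups, was at least 1.32-fold higher in Nfkb1-/- HU. In wild type it also changed upward, without passing the test (limma adjusted p = 0.0707). The number of probe sets whose difference was called ran from 1 to 21 higher and from 2 to 34 lower when 1 array was left out. It was 1 higher and 4 lower without Nfkb1-/- WB array 1, 2 and 7 without WB array 2, and 1 and 2 without WB array 4. Without WB array 4 the differences of Mrpl55, Klk1b16, Cited2 and Itgb6 were no longer called, whereas that of Tial1 was called without any 1 array.

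**Figure D4:**
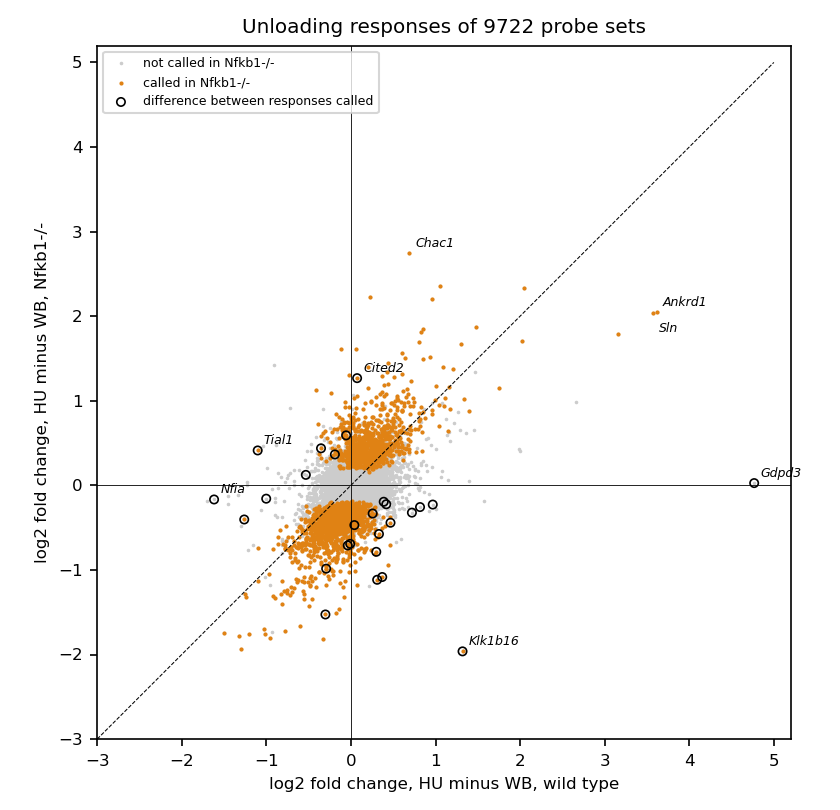
Log2 fold change, HU minus WB, of each tested probe set in Nfkb1-/- muscle (y axis) against wild type muscle (x axis). Orange points were called in Nfkb1-/- muscle, grey ones were not, circles mark the 27 probe sets whose difference between responses was called, and the dashed line is equality; most orange points share the sign of the wild type change, and the labelled Gdpd3, Klk1b16, Nfia, Tial1, Ankrd1 and Sln have a group at or below 20 on all its arrays, so that their positions give a direction and not a size.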

How the data were processed

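Total RNA from gastrocnemius and plantaris muscles was hybridised to Affymetrix Mouse Genome 430A 2.0 arrays, 1 per mouse. The authors deposited linear intensities made in GenePattern 3.2.1 with RMA and quantile normalization; RMA shrinks differences between dim probe sets. Groups were taken from the labels. Here log2 of the intensity was fitted with limma 3.58.1 (R 4.3.3; lmFit, contrasts.fit, eBayes) as 4 group means over the 16 Nfkb1-/- and wild type arrays, whose median intensities were 11.6 to 11.9. The medians of the Bcl3-/- arrays were 81.1 to 86.8. A probe set was tested if its intensity passed 20 on 4 or more arrays (9722) and p-values were Benjamini-Hochberg adjusted over all of them, with calls at 0.05. Of 22690 probe sets, 20380 were listed with 1 gene, 691 with several and 1555 with none, in GEO's platform annotation; 64 were controls and left out. Lists used the probe set with the highest mean. Where all arrays of a group were at or below 20, a named gene's fold is given as at least the brighter group's geometric mean over 20. The genes given were, per direction, the 15 largest non-overlapping calls, the 10 largest differences, the leading list members, the study's 25 genes and cell type markers. Promoters came from RefSeq.

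Members and lists were chosen with earlier results of these data known. On simulated data for this comparison (9722 probe sets), 12% of 50 probe sets changed 1.2-fold were called, 82% at 1.5-fold, 92% at 2-fold and 98% at 3-fold. Alternatives covered filters, normalization, the variance model, the methods' t-test and leaving out arrays.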

Additional observations from a re-analysis of the deposited data

Results flagged for a closer look

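Among 156 groups of 4 arrays checked, 8 held an array far from the other 3 of its group by Dixon's test; chance flags about 1 in 20 such groups, and values are list means relative to the mean of the Nfkb1-/- WB arrays, on the log2 scale. WB array 3 stood high for antioxidant enzymes (0.0897) and for glycolysis and glycogen (0.0529), and low for creatine and polyamine metabolism (-0.0948). WB array 4 stood low for metallothioneins and glucocorticoid response (-0.65) and high for tendon markers (0.12) and endothelial markers (0.14). HU array 1 stood low for slow fibre genes (-0.22) and for skeletal muscle identity markers (-0.13).

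The response of 18 named genes differed between Nfkb1-/- and wild type muscle by the interaction contrast in limma, with values given as the Nfkb1-/- response minus the wild type response. Lower in Nfkb1-/- muscle were Alg3 (-0.68), Gsta4 (-0.69), Mrpl55 (-0.91), Prss23 (-0.91), Pts (-1.07) and Rab40b (-1.04). Higher were Cited2 (1.19), Ctage5 (0.55), Pgap2 (0.86 and 0.84 at its 2 probe sets), Rab6a (0.66) and Slc7a6 (0.65). A higher value here need not be a rise in Nfkb1-/- muscle. Rab6a changed by 0.12 there (not called) and by -0.53 in wild type. Its Nfkb1-/- WB level differed by -0.57 from wild type WB (limma adjusted p = 0.00118). Neither Pgap2 probe set rose in Nfkb1-/- muscle (-0.40 and -0.16). Of the 27 probe sets whose difference was called, 5 also differed between the genotypes in WB. For another 7 genes, 1 or more groups lay at or below an intensity of 20 on all 4 arrays, so that the fitted values have a direction but no defined size or rank: Gdpd3 (-4.74), Itgb6 (-1.23), Klk1b16 (-3.28) and Thyn1 (-1.19) lower, Il15ra (0.79), Nfia (1.45) and Tial1 (1.51) higher. Gdpd3 passed the filter through wild type arrays alone. Whether strain or the deletion lies behind any of them cannot be told apart.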

How the results depend on the processing

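For the Nfkb1-/- response, 962 probe sets were called higher and 1381 lower. With array weights 1658 were higher, with the study's filter 561 higher and 663 lower, with a fold of at least 1.4 also required 392 and 514, with the methods' t-test after Benjamini-Hochberg adjustment 116 and 331, and by its q-values 301 and 492. The study's filter and both versions of the methods' t-test covered fewer probe sets; otherwise the cause was not tested. Without any 1 array, 551 to 1115 were higher and 930 to 1495 lower. For the difference between responses (9 higher, 18 lower), array weights gave 96 and 134, renewed quantile normalization 35 and 48, centred medians 37 lower, the study's filter 11 lower and the trended robust variance 28 lower. Without any 1 array, 1 to 21 were higher and 2 to 34 lower.

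Leaving out 1 Nfkb1-/- array, an alternative chosen after seeing the data, gave 3 to 8 ubiquitin genes higher, 3 to 8 lysosome genes, 4 to 11 cytosolic ribosomal genes, 2 to 5 clock genes, 2 to 7 glucocorticoid genes, 2 to 4 amino acid stress genes and 2 to 8 slow fibre genes. It gave 23 to 27 mitochondrial ribosomal genes lower, 22 to 31 of oxidative phosphorylation, 7 to 12 of fatty acid oxidation, 6 to 10 chaperones, 12 to 22 matrix genes and 5 to 7 tendon markers. The medians of these 13 lists kept their sign under both other scalings and with all probe sets of a gene. Members named only from the lists were not followed gene by gene. Those followed were 51 probe sets of the leading rises, the leading falls and the study's genes, and 19 differences. None of these reversed. Calls were lost under some settings for Ube2j1 (8 settings), Actc1 (7), Foxo3 (6), S100a8 (6), Eif4ebp1 (5), Cited4 (1) and Sln (1), and each named difference was lost at least 1 time, from 1 of 26 settings for Tial1 and Mrpl55 to 19 of 26 for Alg3.

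Replicate numbers did not pair the arrays: deviations of same-numbered Nfkb1-/- arrays correlated between -0.0927 and 0.274, and those of wild type arrays between -0.0844 and 0.0644. With the replicate number as a block, 899 probe sets were higher and 1317 lower, and 7 and 19 for the difference. Signal over background limits the data: 9722 of the 22690 probe sets passed the filter on intensity.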
